A study of Mus musculus with 4 samples.

Results

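Genes of mitosis and chromosome segregation were followed in immortalized multipotent otic progenitors (iMOP), a mouse cell line of inner ear precursors, and in neurons derived from them. The 53 members were named by symbol as mitotic kinases and genes of the spindle, the kinetochore and the condensin complex. All 53 were among the 49997 genes of the deposited count tables, and all 53 were among the 12783 genes that passed the filter on low counts. By role they formed 7 groups: 11 genes of mitotic entry, 9 of the spindle checkpoint and anaphase, 4 of the chromosomal passenger complex, 7 of the kinetochore, 8 kinesins, 7 of the spindle and cytokinesis, and 7 of condensin and chromosome structure.

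Total RNA was depleted of ribosomal RNA and sequenced with a stranded kit from 4 cultures of wild-type iMOP cells. The 2 proliferating cultures were grown in DMEM/F12 medium with B27, carbenicillin and bFGF, a growth factor, at 20 ng/ml. The 2 neuron cultures were grown in Neurobasal medium with N21, L-glutamine and K03861, an inhibitor of the kinase CDK2, at 1 µM. All 4 libraries come from the same immortalized line, and the medium and the inhibitor changed together, so their parts in any difference cannot be told apart. Both replicate 2 titles add the words set 2. The titles call the samples biological replicates without saying whether the cultures were separate, so p-values here measure the spread between these samples, which may be technical.

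A dividing cell builds a bipolar spindle of microtubules, attaches each chromosome to it through kinetochores, and separates the sister chromatids once the spindle checkpoint is satisfied. Cyclin B with Cdk1, and the Polo and Aurora kinases, drive entry into mitosis, condensins and topoisomerase II shape the chromosomes, and kinesin motors move them. Most of these genes are transcribed in the G2 and M phases and are silent in cells that have left the cycle, as neurons have. In RNA from whole cultures, fewer cycling cells and less RNA per cell cannot be told apart.

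Totals were 7446361 and 10377984 counts in proliferating replicates 1 and 2, and 9474127 and 14484011 in neuron replicates 1 and 2. An 18S ribosomal RNA gene held 53.3% and 59.4% of the counts in the replicate 1 libraries and 75.0% and 76.1% in the replicate 2 libraries, which left between 2595578 and 3850766 counts per library for other genes. Proliferating replicate 2 stood apart, with 17762 genes detected against 20012 to 21637 in the other libraries. The markers did not separate the labelled cell types cleanly. Of the 13 neuron markers the summed level was 169 and 366 CPM in the proliferating libraries and 208 and 380 CPM in the neurons, where CPM is the count scaled to the TMM-adjusted library size. Tubb3, a neuronal tubulin, had 233 and 1430 counts in the proliferating and 342 and 1026 in the neuron libraries, so the groups overlapped. Of the 13, both neuron libraries were above both proliferating libraries in CPM for Elavl4 and Map2 and below for 0. Gfap, a glial filament gene, had 181 and 89 counts in the proliferating libraries and 1 and 2 in the neurons. The library labelled proliferating replicate 2 had lower summed mitotic levels and more Tubb3, Stmn2, Nefl and Ina than either neuron library. It had less Elavl4, Map2, Dcx and Rbfox3 than either. Among the 4 libraries it had the highest Sox2, Sox9, Nes and Vim and the lowest Eya1. Its label was kept, and the comparison is also given without this library. Of the 11 otic progenitor markers the summed level was 440, 1285, 425 and 281 CPM in the same order, and the defining genes Pax2 and Pax8 were at 0 counts in all 4 libraries. Both neuron libraries were below both proliferating libraries for 5 of the 11, Sox9, Jag1, Dlx5, Gata3 and Vim, and above for Eya1. They were also below for the glial markers Gfap, Fabp7 and Aldh1l1 and the hair cell markers Myo7a and Myo6, and above for 0 of either list. Dlx5, Gata3, Aldh1l1 and Myo7a were under the count filter. Over all tested genes the shares were 14.5% below and 12.9% above.

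The promoters of mitotic genes are known for a short element named CHR, with the core TTTGAA or TTCGAA, and for CCAAT boxes, through which the cell cycle complexes DREAM and MMB and the factor NF-Y act. RefSeq promoters (GRCm38.p6) were matched for 45 of the 53 members, with 48 promoters in all. Promoters of Smc4, Tpx2, Aurkb, Spc24, Incenp, Kif20a, Foxm1 and Cdc25c were missing. In the 250 bases before the start, on either strand, TTTGAA stood in 18 of the 48 member promoters (37.5%) and in 16% of all promoters in the table. TTCGAA stood in 4.17% and 1.34%, and CCAAT in 70.8% and 33.8%. A CHR word together with CCAAT stood in 35.4% of member promoters and 6.02% of all. Among promoters of the tested genes that share was 4.82%. These are matches of letters, and no binding was measured. To show members with and without a CHR word, 4 promoters are printed from the 9 members whose window lay clear of annotated exons and of the gene itself. They were chosen as the ends of the range of change between the proliferating cultures among these 9, not among all members. Capitals mark TTTGAA (or TTCAAA, the same word on the other strand) and CCAAT. Smc2 (chr4:52438971-52439220, plus strand) has TTCAAA at position -145 from the start and CCAAT at -119. Ccnb2 (chr9:70421555-70421804, minus strand) has TTTGAA at -167 and CCAAT at -87, -54 and -21. Plk4 (chr3:40799701-40799950, plus strand) and Birc5 (chr11:117848987-117849236, plus strand) hold none of the words in this window.
Smc2: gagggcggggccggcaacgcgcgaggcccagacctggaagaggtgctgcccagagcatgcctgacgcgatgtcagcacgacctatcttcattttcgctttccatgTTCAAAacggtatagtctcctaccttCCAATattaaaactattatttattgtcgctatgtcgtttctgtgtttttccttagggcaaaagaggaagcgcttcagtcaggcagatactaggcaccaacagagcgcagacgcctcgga
Ccnb2: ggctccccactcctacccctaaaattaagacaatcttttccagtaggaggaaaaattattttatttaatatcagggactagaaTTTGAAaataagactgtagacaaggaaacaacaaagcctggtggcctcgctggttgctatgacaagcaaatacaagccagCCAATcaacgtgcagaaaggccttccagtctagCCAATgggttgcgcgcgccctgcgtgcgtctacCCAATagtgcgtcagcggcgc
Plk4: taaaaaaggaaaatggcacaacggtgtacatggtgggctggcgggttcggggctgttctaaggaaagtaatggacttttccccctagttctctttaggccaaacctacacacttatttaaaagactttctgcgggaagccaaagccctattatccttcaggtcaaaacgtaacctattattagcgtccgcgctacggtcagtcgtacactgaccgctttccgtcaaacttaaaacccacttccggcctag
Birc5: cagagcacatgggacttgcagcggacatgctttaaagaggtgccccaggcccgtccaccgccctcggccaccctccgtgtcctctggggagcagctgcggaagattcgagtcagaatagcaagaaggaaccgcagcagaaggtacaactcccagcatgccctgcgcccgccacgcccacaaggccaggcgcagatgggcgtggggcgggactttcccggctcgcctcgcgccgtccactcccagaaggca

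Mitotic transcripts were highest in neuron replicate 1, close behind in proliferating replicate 1, and lowest in proliferating replicate 2. Summed over the 53 genes, the level was 1042 and 295.6 CPM in proliferating replicates 1 and 2, and 1262 and 755.7 CPM in neuron replicates 1 and 2. As a share of all counts outside the 18S gene these were 0.366% (95% Wilson interval 0.360 to 0.372), 0.0844% (0.0809 to 0.0880), 0.391% (0.385 to 0.397) and 0.215% (0.210 to 0.220). Intervals here and below cover counting error only, since reads without molecular identifiers are not independent molecules. Neuron replicate 2 lay between the proliferating libraries, so the groups overlapped, and the gap between the proliferating libraries exceeded that between the group means. Single members had 18 to 2035 counts (median 139) and 4 to 162 counts (35) in the proliferating replicates, and 27 to 2599 (153) and 15 to 1285 (92) in the neuron replicates. Proliferating replicate 2 was the lowest of the 4 libraries for 49 of the 53 members. That order held for 37.8% of all tested genes.

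**Figure D1:**
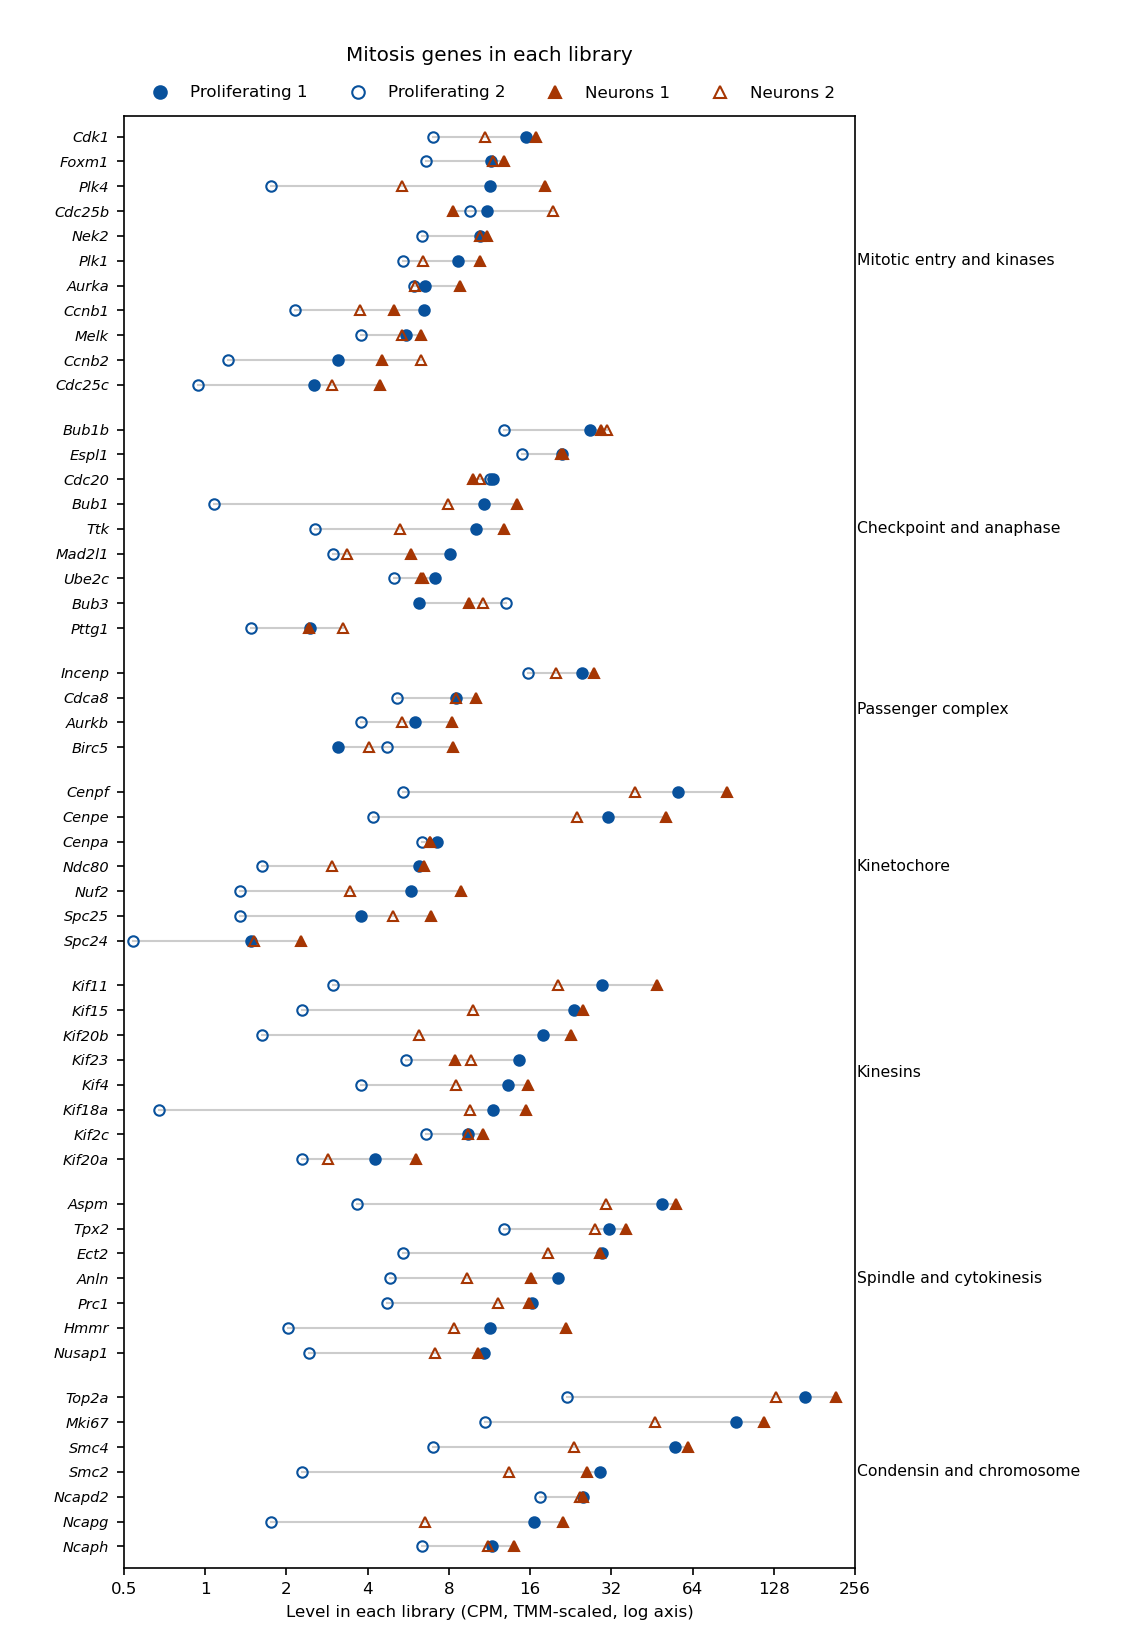
Level of each of the 53 genes in each of the 4 libraries, in CPM on a log axis, by role group and ordered within a group by the level in proliferating replicate 1. Circles are proliferating and triangles neuron libraries, open symbols are replicate 2, and the grey line spans the 4 values. The open circle is leftmost for 49 of the 53 genes.

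Levels can be compared between genes only per length. By CPM per kilobase of the longest GENCODE transcript, averaged over the 4 libraries, Top2a led with 25.7, ahead of the condensin subunit Smc4 with 8.52, the checkpoint kinase Bub1b with 6.81, the proliferation antigen Mki67 with 6.67, Incenp with 6.41, Tpx2 with 6.21 and Cdc20 with 6.03. This order is that of the mean, and in proliferating replicate 2 Cdc20 led with 6.32, ahead of Incenp with 4.58 and Top2a with 4.19. The lowest was Mad2l1, a checkpoint protein, with 0.669, over a longest transcript of 7557 bases. The deposited RPKM was not used for this order, because of the length it implies. That length was 0.42 to 10.2 times that of the longest transcript and more than 1.5 times as long for 37 of the 53 members. For Mad2l1 it was 3701 bases, or 0.49 times the longest transcript, so its rank depends on the length chosen. By mean RPKM Mad2l1 was at 1.69, above Spc24 at 0.268.

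Of the 11 genes of mitotic entry 5 were at least 2-fold lower in proliferating replicate 2 than in replicate 1. That is 45.5%, against 24.5% of all tested genes. Plk4, the kinase that starts centriole duplication, was at 11.4 and 1.75 CPM in proliferating replicates 1 and 2 and at 18.1 and 5.39 CPM in the neurons. Both replicate 2 libraries lay below both replicate 1 libraries, and proliferating replicate 2 was 6.49-fold below replicate 1 (95% counting interval 3.67 to 12.5). Plk1, the Polo kinase of mitotic entry and spindle assembly, was at 8.68 and 5.40 CPM in the proliferating cells and at 10.5 and 6.40 CPM in the neurons, with the same order of libraries and a smaller ratio between the proliferating cultures of 1.61 (1.11 to 2.38). Aurka, the Aurora kinase of the spindle poles, was at 6.55, 5.94, 8.81 and 6.0 CPM in the same order, and its proliferating libraries differed by less than counting error, at 1.10-fold (0.755 to 1.63). The 11 genes also include Cdk1, the B cyclins Ccnb1 and Ccnb2, and the phosphatases Cdc25b and Cdc25c. Foxm1, a transcription factor, and the kinases Nek2 and Melk complete them. All 11 were below 0 in the log2 CPM difference of proliferating replicate 2 minus 1, against 51.1% of all tested genes. Their median was -0.78. With a correction for GC content described below, 7 of the 11 were at least 2-fold lower, a share not computed for all genes. Plk4, Plk1 and Aurka were then at log2 CPM differences of -1.79, -1.34 and -0.57.

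The spindle checkpoint and anaphase genes ran from -3.11 for Bub1 to 1.05 for Bub3 in the log2 CPM difference of proliferating replicate 2 minus 1. Bub1, a kinase that recruits checkpoint proteins to the kinetochore, was at 10.8 and 1.08 CPM in the proliferating libraries, from 132 and 8 counts, and at 14.3 and 7.93 CPM in the neurons. Proliferating replicate 2 was lower than each of the other libraries, with a ratio of 0.0998 to replicate 1 (95% counting interval 0.0422 to 0.203). Cdc20, which activates the anaphase-promoting complex, was at 11.6 and 11.3 CPM in the proliferating libraries and at 9.81 and 10.5 CPM in the neurons. It was the single member with both neuron libraries below both proliferating libraries, and its proliferating libraries differed by 1.03-fold (0.778 to 1.36), within counting error. Its ratios of neurons to proliferating cells were also within counting error, at 0.84 (0.65 to 1.09) in pair 1 and 0.92 (0.69 to 1.25) in pair 2. The complex's ubiquitin-conjugating enzyme Ube2c was at 7.13, 4.99, 6.29 and 6.40 CPM in the order of the libraries above, and the groups overlapped. Bub3, which carries Bub1 to the kinetochore, went the other way, though not with library size alone, with 76 and 97 counts, or 6.23 and 13.1 CPM, in the proliferating and 9.48 and 10.7 CPM in the neuron libraries. It was the single member at least 2-fold higher in proliferating replicate 2 than in replicate 1, at a ratio of 2.10 (1.54 to 2.88), where 12% of all tested genes were. The 9 genes also include the checkpoint genes Bub1b, Mad2l1 and Ttk, securin (Pttg1) and separase (Espl1). Their median difference was -0.66, and -1.15 with a correction for GC content described below. With that correction Bub1 was at -2.17, Ube2c at -1.15, Cdc20 at -0.69 and Bub3 at 1.06.

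The 4 chromosomal passenger genes, which hold the Aurora B kinase at centromeres and the midzone, differed by less than 2-fold between the proliferating cultures before the GC correction, but with it Aurkb and Incenp were at log2 CPM differences of -1.15 and -1.27. Cdca8, the borealin subunit, was at 8.52 and 5.13 CPM in proliferating replicates 1 and 2 and at 10.1 and 8.54 CPM in the neurons. Birc5, or survivin, was at 3.11 and 4.72 CPM in the proliferating and 8.30 and 4.07 CPM in the neuron libraries. Neuron replicate 1 was thus high for Birc5, and the other 3 libraries lay close together. For Aurkb and Incenp, as for Cdca8, proliferating replicate 2 was the lowest library, and the median difference of the group was -0.65 (-0.95 with the GC correction).

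Kinetochore genes split by subunit. Cenpe, a kinesin that captures microtubules at kinetochores, was at 31.1 and 4.18 CPM in the proliferating libraries, from 380 and 31 counts, and at 51.1 and 24.0 CPM in the neurons. Cenpf, a large protein of the outer kinetochore, was at 56.7, 5.40, 86.1 and 39.3 CPM in the same order. In both genes proliferating replicate 2 lay below the other 3 libraries, by 7.44-fold (95% counting interval 5.15 to 11.1) against replicate 1 for Cenpe and 10.5-fold (7.63 to 14.8) for Cenpf. Cenpa, the centromeric histone H3 variant, was at 7.21, 6.34, 6.79 and 6.81 CPM, with the proliferating libraries within counting error of each other, at 1.14-fold (0.789 to 1.66). The 4 subunits of the microtubule-binding NDC80 complex, Ndc80, Nuf2, Spc24 and Spc25, were at differences of -1.82, -1.96, -1.19 and -1.36 in log2 CPM. With the GC correction they were at -1.08, -1.12, -1.72 and -0.65, so Spc24 was then the lowest of the 4. The median of the 7 genes was -1.82 (-1.12 with the GC correction).

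Among the kinesins, Kif18a, which limits the movement of chromosomes at the metaphase plate, showed the widest gap between the proliferating cultures of all 53 members, though with the GC correction it was at -2.45 and Aspm was lowest at -3.24. It had 143 and 5 counts in the proliferating and 185 and 94 counts in the neuron libraries, or 11.7, 0.675, 15.5 and 9.56 CPM. Proliferating replicate 2 alone was low, 17.4-fold below replicate 1, with a wide counting interval of 7.27 to 54.3. Kif15, a motor that helps hold the spindle poles apart, was at 23.3 and 2.29 CPM in the proliferating and 25.2 and 9.86 CPM in the neuron libraries, so both replicate 2 libraries were low. Kif2c, which depolymerizes microtubules at centromeres, was at 9.42, 6.61, 10.7 and 9.45 CPM, with both neuron libraries above both proliferating libraries by a small margin. Of the 8 kinesins 6 were at least 2-fold lower in proliferating replicate 2, or 75%, against 24.5% of all tested genes. Among the 6, Kif11 and Kif20b were at log2 CPM differences of -3.24 and -3.32. The median of the 8 was -2.50 (-1.98 with the GC correction).

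All 7 spindle and cytokinesis genes were at least 2-fold lower in proliferating replicate 2 than in replicate 1, against 24.5% of all tested genes. Aspm, a spindle pole protein needed for symmetric divisions of neural progenitors, was at 49.2 and 3.64 CPM in the proliferating libraries, from 600 and 27 counts, and at 55.7 and 30.6 CPM in the neurons. Tpx2, which activates Aurka and nucleates spindle microtubules, was at 31.5, 12.8, 36.2 and 28.0 CPM in the same order. Proliferating replicate 2 was below the other 3 libraries in both genes, 13.5-fold against replicate 1 for Aspm (95% counting interval 9.18 to 20.6) and 2.45-fold for Tpx2 (1.96 to 3.10). The remaining genes, Prc1, Nusap1, Hmmr, Ect2 and the actin-binding cytokinesis protein Anln, lay between these, and the group's median was -2.07 (-1.34 with the GC correction).

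Condensin and chromosome genes had a median difference of -2.94 between the proliferating cultures, the lowest of the 7 groups, but -1.87 with the GC correction, where the kinesins were lowest. Top2a, which untangles sister DNA, was at 167 and 21.9 CPM in the proliferating libraries, from 2035 and 162 counts, and at 218 and 131 CPM in the neurons, from 2599 and 1285 counts. Smc2, the core subunit shared by both condensins, was at 29.0, 2.29, 26.1 and 13.4 CPM in the same order. For both genes proliferating replicate 2 was the lowest library and neuron replicate 2 the next lowest, and the former was 7.62-fold below proliferating replicate 1 for Top2a (95% counting interval 6.49 to 9.00) and 12.6-fold for Smc2 (7.78 to 21.9). Ncapd2, a regulatory subunit of condensin I, was at 25.2, 17.4, 25.1 and 24.5 CPM, so 3 libraries were level and proliferating replicate 2 was 1.44-fold below replicate 1 (1.17 to 1.79). The condensin I subunits were at log2 CPM differences of -3.55 for Smc2, -2.94 for Smc4, -3.10 for Ncapg, -0.85 for Ncaph and -0.53 for Ncapd2. With the GC correction the range was narrower, at -2.41, -1.87, -1.38, -0.94 and -1.12 in the same order.

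Neurons and proliferating cells were compared first over all 4 libraries. In edgeR's quasi-likelihood test no member passed a Benjamini-Hochberg adjusted p of 0.05, and the background was also 0% of the 12783 tested genes in each direction (percent called 0 higher and 0 lower). At an unadjusted p under 0.05 there were 0 members, against 0.915% of all genes higher and 2.51% lower in neurons. DESeq2 also called 0 members in either direction, against 0.0939% of all genes higher and 0.375% lower. The fitted log2 fold change was above 0 for 50 of 53 members, against 6651 of all 12783 tested genes, with a median of 0.45 against 0.02. It ranged from -0.29 (SE 0.63) for Mad2l1 to 1.29 (SE 0.62) for Ccnb2, with standard errors of 0.46 to 1.03 and an adjusted p of 0.9998 in edgeR for every member. Scaling by library size alone brought the median down to 0.059, with 29 members above 0, while the median of all genes moved to -0.27. For Top2a the means were 94.3 ± 102 CPM (proliferating) and 174 ± 61.8 CPM (neurons; SD over n = 2), and its fitted log2 change of 0.88 (SE 0.85) was within the spread of the replicates.

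Members with groups that did not overlap were few. Both neuron libraries were above both proliferating libraries for 8 members, or 15.1% of them, against 12.9% of all tested genes, and the members were Ccnb2, Foxm1, Cdc25c, Bub1b, Cdca8, Spc24, Spc25 and Kif2c. Ccnb2, a B-type cyclin whose promoter is printed above, had 38 and 9 counts in the proliferating and 54 and 62 in the neuron libraries, or 3.11, 1.21, 4.53 and 6.30 CPM. Cdc20 was the single member below in both, against 14.5% of all genes. With 2 libraries in each group an exact permutation test of 1 gene cannot give a two-sided p below 0.333.

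Within replicate pairs, which share no library, the comparison gave different sizes. In pair 1, neurons minus proliferating, the median log2 CPM difference was 0.20 over the members, and 39 of 53 were above 0 against 50% of all tested genes, but library size alone turned the median to -0.18, with 18 members above 0. A single member, Birc5, was at least 2-fold higher in the pair 1 neurons, at 1.36 (4.69% of all genes), and 0 were at least 2-fold lower (7.77%). In pair 2 the median was 1.04 and 50 of 53 members were above 0 (53.3% of all genes), and below 0 were Bub3, Cdc20 and Birc5 (46.7%). At least 2-fold higher in the pair 2 neurons were 28 members, or 52.8%, against 20% of all genes. Both pairs were above 0 for 37 members (28.8% of all genes) and below 0 for Cdc20 alone (25.5% of all genes). With the GC correction Cdc20 was at -0.19 in pair 1 and 0.32 in pair 2. By role, the pair 1 medians ran from -0.02 for the spindle and cytokinesis genes to 0.60 for the kinetochore genes, and the pair 2 medians from 0.41 for the passenger complex to 1.78 for condensin and chromosome genes. With the GC correction the pair 2 medians ran from 0.76 for the passenger complex to 1.23 for the kinetochore genes, with condensin and chromosome genes at 0.91.

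**Figure D2:**
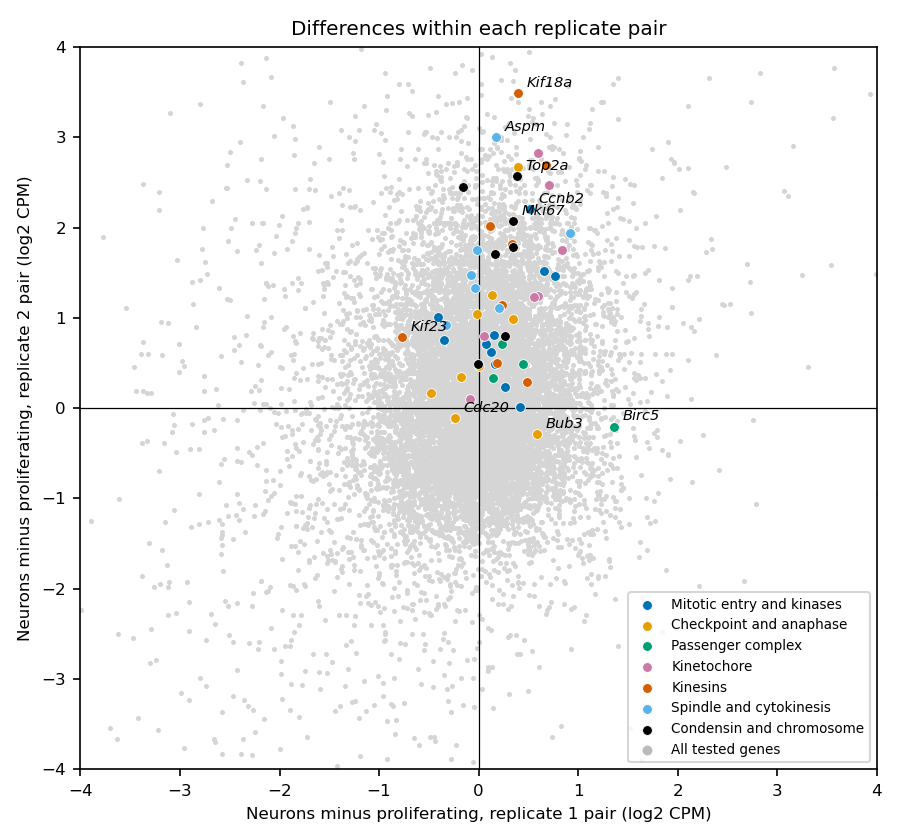
Difference in log2 CPM, neurons minus proliferating, in the replicate 1 pair (x axis) and the replicate 2 pair (y axis), for the 53 members coloured by role and for all tested genes in grey, with genes beyond the axes not drawn. The members gather near 0 on the x axis, with a median of 0.20 that turns to -0.18 with library size alone, and spread upwards on the y axis, with a median of 1.04.

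The pooled comparison turned on proliferating replicate 2. Over all tested genes the median fitted log2 fold change was 0.011 without that library and 0.065 without proliferating replicate 1. Without proliferating replicate 2 the median of the members was 0.039, and 28 of 53 were above 0. Without proliferating replicate 1 it was 1.38, with 51 above 0, and edgeR then called 6 members higher in neurons at an adjusted p under 0.05, where 0.422% of all tested genes were called higher. These 6 were Kif18a (4.17, adjusted p = 0.032), Aspm (3.54, 0.027), Cenpf (3.52, 0.032), Kif11 (3.49, 0.044), Cenpe (3.15, 0.047) and Top2a (2.98, 0.027), with the lone proliferating library assumed to vary like the neurons. Removal of a neuron library gave medians of 0.097 (replicate 1 removed) and 0.71 (replicate 2 removed). With the replicate number as a block, edgeR called 0 members (0% of all genes higher and 0.0235% lower), and 10 were higher at an unadjusted p under 0.05, or 18.9%, against 2.7% of all genes. The 10 were Mki67, Top2a, Bub1, Kif11, Kif18a, Cenpe, Cenpf, Spc25, Hmmr and Aspm, and the median with the block was 0.63.

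**Figure D3:**
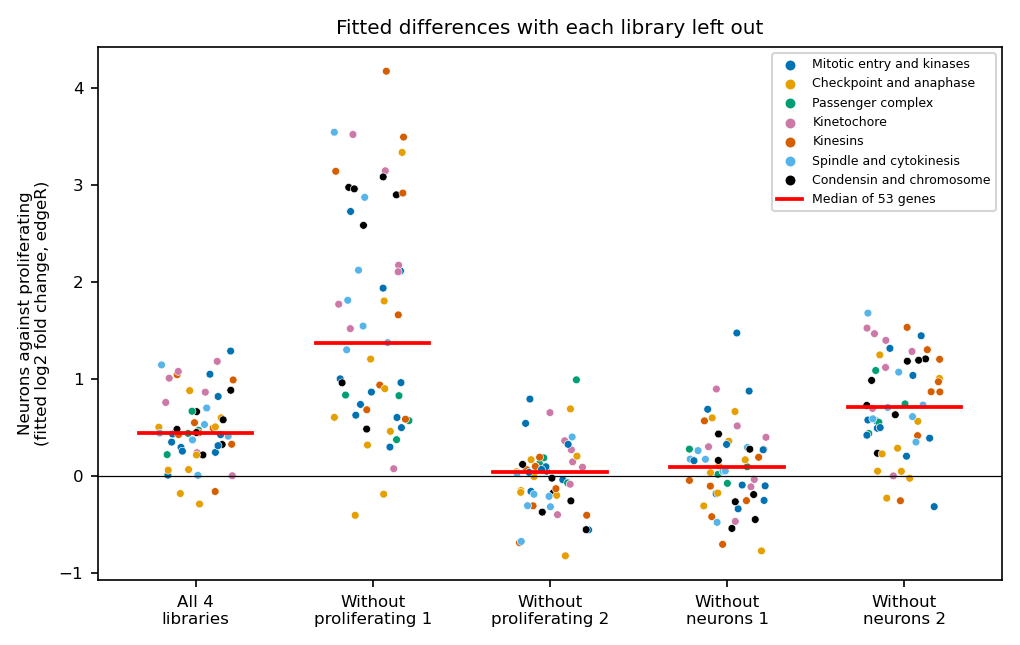
Fitted log2 fold change, neurons against proliferating, of each of the 53 genes with all 4 libraries and with each library left out; points are genes coloured by role, spread sideways for legibility, and red bars are medians. The median lies at 0.45 with all libraries, 1.38 without proliferating replicate 1 and 0.039 without proliferating replicate 2.

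The proliferating cultures were next compared with each other, and the neuron cultures likewise. Between the proliferating cultures 51 of 53 members were lower in replicate 2, against 51.1% of all tested genes, and 33 were at least 2-fold lower, or 62.3%, against 24.5%. The median log2 CPM difference was -1.36 over the members and -0.04 over all genes. Bub3 and Birc5 were higher (48.9% of all genes), though not with library size alone, where all 53 were lower and the median of all genes was -1.18. Between the neuron cultures 44 members were lower in replicate 2 (49.9% of all genes) and 14 were at least 2-fold lower, or 26.4%, against 10.1%, with a median of -0.59 against 0.00 for all genes. Cdc25b, a phosphatase that activates Cdk1, was at least 2-fold higher in neuron replicate 2 (8.57% of all genes). Both differences were below 0 for 43 members (32.4% of all genes), and the Spearman correlation between the differences was 0.72 across the 53 genes. The differences share no library, but all genes were read from the same libraries and are not independent. Over all tested genes a Pearson correlation of the deviations from the group means was 0.33.

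Both replicate 2 cultures carry the words set 2 in their titles, so the cultures were also compared by set with the group as a covariate. In edgeR 0 of 53 members passed an adjusted p of 0.05, as for all 12783 genes (0% each way), and 22 members were lower in set 2 at an unadjusted p under 0.05, or 41.5%, against 8.63% of all genes. No member was higher at that level (3.56% of all genes). The lowest adjusted p of a member in edgeR was 0.209, for Kif20b, a kinesin of cytokinesis, with a log2 fold change of -2.59 (SE 0.56) and 219, 12, 271 and 61 counts in the order of libraries above. Ncapg followed at -2.39 (SE 0.55), then Plk4 at -2.18 (SE 0.51), Smc4 at -2.16 (SE 0.52) and Mki67 at -2.19 (SE 0.53). The median of the members was -0.95, against 0.01 for all genes. DESeq2 called 5 members lower, Mki67, Kif20b, Smc4, Ncapg and Kif15, at adjusted p-values of 0.018 to 0.044, where it called 0.415% of all genes lower, and edgeR without the gene filter called 14 (0.8% of all genes). limma on log2(RPKM + 1) and log2(RPKM + 0.1), scaled to totals with the 18S gene included, called 39 members lower each time, against 25% and 24.2% of all genes. Both set 2 libraries were below both set 1 libraries for 37 members, or 69.8%, against 26% of all genes, and above for Bub3 alone (22.8%). What a set is was not stated, and a batch and a true difference between cultures cannot be told apart.

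The difference between the proliferating cultures moved with the base composition of the transcripts. GC content of the longest transcript ran from 34.8% to 56.1% over the members, and its Spearman correlation with the difference between the proliferating cultures was 0.80 over 53 members and 0.54 over 11597 tested genes. With the difference between the neuron cultures it was 0.66 and 0.32. In members below 43% GC the median difference between the proliferating cultures was -2.84 (17 genes), against -1.20 for other genes in that range. From 43% to 48% it was -1.37 (17 genes) against -0.42, and at 48% or more it was -0.66 (19 genes) against 0.42. Members were thus lower than other genes in each range. After a lowess correction for GC content in each library, the median over members was -1.24 between the proliferating cultures, against -0.12 for all genes. Between the neuron cultures it was -0.52, against 0.02. At least 2-fold lower in proliferating replicate 2 were then 38 members, a share not computed for all genes. By set, 20 members were still lower at an unadjusted p under 0.05 in edgeR with that correction, or 37.7%, against 4.21% of all genes. Transcript length also moved with the difference between the proliferating cultures, at a correlation of -0.58 over the members and -0.25 over all genes. These are correlations across genes, which are not independent replicates, and the points share libraries. The part of GC content, length, the 18S share and the genes detected in the result was not tested beyond this correction.

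**Figure D4:**
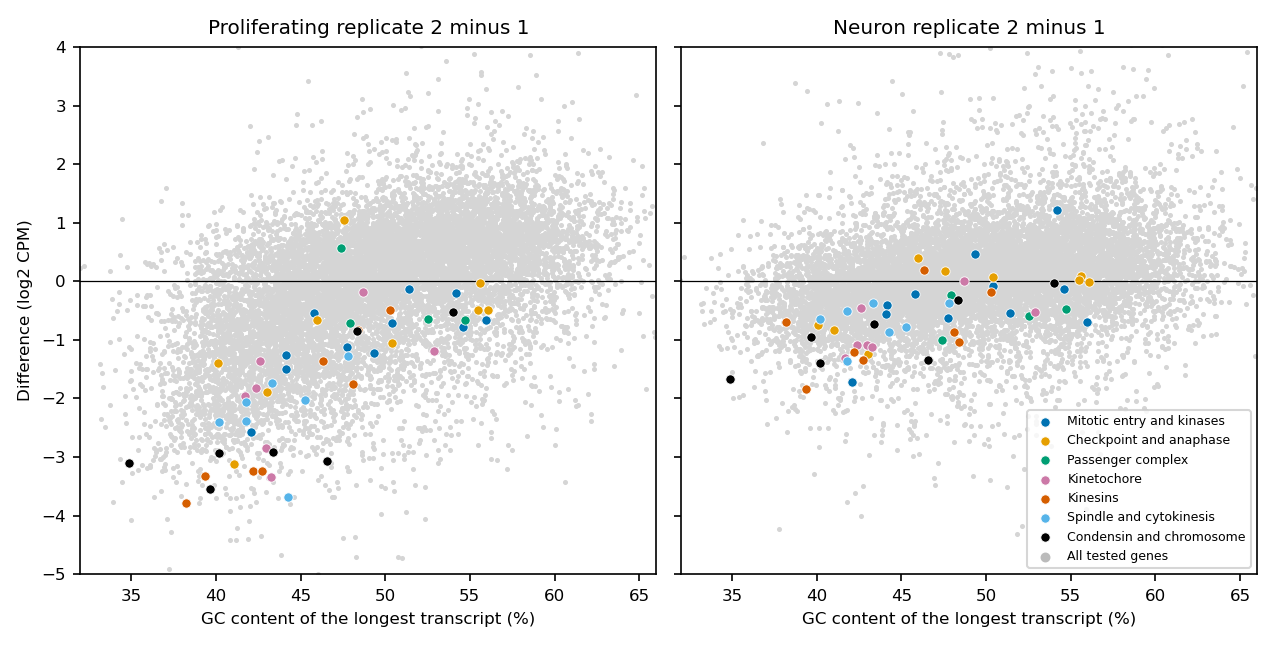
Difference in log2 CPM of replicate 2 minus replicate 1 in proliferating cells (left) and neurons (right) against the GC content of the longest transcript, for the 53 members coloured by role and for all tested genes in grey, with genes beyond the axes not drawn. Members below 43% GC lie lowest on the left, with a median of -2.84, and members at 48% or more have a median of -0.66.

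Marker levels moved with the same libraries. Proliferating replicate 2 had the highest progenitor marker sum, 1285 CPM against 281 to 440 CPM in the other libraries, carried by Vim with 6939 counts and Nes with 1530. Its neuron marker sum of 366 CPM was close to the 380 CPM of neuron replicate 2, but the genes behind the sums differed. Tubb3 was at 193 CPM in proliferating replicate 2 and 104 CPM in neuron replicate 2. Map2 was at 92.1 and 140 CPM, Dcx at 15.4 and 38.9 CPM and Elavl4 at 12.1 and 37.9 CPM. Of the 11 tested neuron markers, 7 were higher in neuron replicate 2 than in proliferating replicate 2 (53.3% of all tested genes) and 4 were lower (46.7%). The 11 had a median log2 CPM difference of 0.67 between the proliferating cultures and 1.46 between the neuron cultures. All 11 were higher in neuron replicate 2 than in neuron replicate 1 (50.1% of all tested genes). Of the 9 glial markers the summed level was 67.8, 63.3, 21.2 and 2.13 CPM, and of the 6 hair cell markers 23.8, 18.9, 4.61 and 22.1 CPM, with Pou4f3 and Otof at 0 in all libraries. Their part in the lower mitotic levels was not tested.

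Members with and without a CHR word overlapped widely in the difference between the proliferating cultures. The 17 members with TTTGAA or TTCGAA in any promoter had a median log2 CPM difference of -1.23 between the proliferating cultures (range -3.55 to 1.05), and the 28 without had -1.63 (range -3.78 to 0.57). Of the members printed above, Smc2 and Ccnb2 have the word and were at -3.55 and -1.23. Plk4 and Birc5 lack it and were at -2.57 and 0.57.

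Other genes of the division cycle, outside the 53, were read from the same fits. Of 77 further mitosis symbols 72 were in the tables and all 72 passed the filter. In edgeR 0 of the 72 were called between neurons and proliferating cells, and 0 at an unadjusted p under 0.05. Between the proliferating cultures 60 of the 72 were lower in replicate 2 (83.3%, against 51.1% of all tested genes) and 39 at least 2-fold lower (54.2%, against 24.5%), with a median log2 CPM difference of -1.09. Knl1, the kinetochore scaffold that binds Bub1 and Bub3, was at 44.8, 4.86, 44.5 and 19.7 CPM in the order of libraries above, and Ncapg2, a condensin II subunit, was at 21.5, 2.02, 19.7 and 11.7 CPM. Racgap1, the partner of Kif23 in the central spindle, was at 18.8, 32.5, 20.9 and 24.4 CPM. By set 20 of the 72 were lower at an unadjusted p under 0.05 in edgeR, or 27.8%, against 8.63% of all genes, and 0 were called.

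Of 32 DNA replication genes 29 were lower in proliferating replicate 2 (90.6%, against 51.1% of all tested genes), with a median of -0.44, or -0.75 with the GC correction. At least 2-fold lower were 8, or 25%, against 24.5% of all genes. Pola1, the catalytic subunit of DNA polymerase alpha, was at 37.9, 5.40, 45.1 and 19.3 CPM in the order of libraries above, and Mcm2, a subunit of the replicative helicase, was at 26.3, 30.4, 28.6 and 32.5 CPM. By set 4 of the 32 were lower at an unadjusted p under 0.05 in edgeR, or 12.5%, against 8.63% of all genes. Of 21 cell cycle transcription factors 20 were tested, with a median of -0.36. E2f1, an activator of G1 to S genes, was at 8.11, 13.9, 8.47 and 9.35 CPM, while Mybl2, the MMB subunit that activates mitotic genes, was at 12.2, 3.91, 8.89 and 9.45 CPM. Of 7 CDK inhibitor genes 6 were tested, with a median of 0.05 between the proliferating cultures. None of the 3 lists had a gene called in edgeR between neurons and proliferating cells, or at an unadjusted p under 0.05.

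Some counts could include reads of neighbours or copies. The use of strand in counting was not stated, and 23 members overlap the span of another RefSeq gene, so reads of the pair cannot be told apart there if strand was not used. Among these, Aurka overlaps Cstf1, with 53 to 73 counts per library, and Ncapg overlaps Lcorl, with 287, 20, 357 and 124 counts. Kif20a, with 52, 17, 72 and 28 counts, overlaps Cdc23 and also Brd8, the latter with 275, 86, 229 and 178. Ncapd2, with 307, 129, 299 and 241 counts, overlaps Scarna10, with 302, 212, 289 and 351. Top2a, with 2035, 162, 2599 and 1285 counts, overlaps LOC115487886, with 281, 134, 321 and 208. The pseudogenes Kif4-ps and Ccnb2-ps had 0 counts in all libraries, and Ccnb1-ps had 3, 0, 2 and 0.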

How the data were processed

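For each of 4 libraries the authors deposited a table of raw counts and a table of RPKM by gene. Per the submitters' processing notes, HISAT2, SAMtools, featureCounts, DESeq2, deepTools 3.4.3 and mm10 were used. Their settings, the annotation and the use of strand are not given in the sources used here. The deposited RPKM equals the count over the column total, the 18S gene included, and over 1 length per gene (25859 genes with a count). Columns of other series numbered 0. The members and all gene lists were chosen with earlier results of these data known.

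Counts were tested with edgeR 4.0.16 (R 4.3.3): TMM, filterByExpr (minimum count 10, minimum total 15), glmQLFit and glmQLFTest with group as the term, two-sided, Benjamini-Hochberg over 12783 genes, calls at 0.05. The spread between replicates was wide, with a common biological coefficient of variation of 0.456. Differences of 1 library against 1 are log2 CPM with a prior count of 2, with no test. Alternatives used DESeq2 1.42.0 and limma 3.58.1 on log2(RPKM + 1) and log2(RPKM + 0.1). The scripts were tested on simulated data. Replicate numbers were taken to pair libraries, since the 2 replicate 2 titles share the words set 2, and deviations from the group means correlated between libraries of equal number (r = 0.33 across genes). Transcript length and GC content came from GENCODE M21 (53 members, 11597 tested genes, 90.7%).

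Any member could be named. Per-library values were given, in each role group, for the member with the highest mean RPKM and those with the largest and smallest difference between the proliferating cultures. Mki67, Bub3, Ccnb2 and Kif20b were added after their values were seen. Promoters followed the same rule, kept to windows clear of exons.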

Additional observations from a re-analysis of the deposited data

Results flagged for a closer look

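In 3 members the difference of neurons minus proliferating cells had opposite signs in the replicate pairs, each beyond counting error. The share of all tested genes under this rule was not computed, so 3 of 53 cannot be called unusual. By sign alone, both pairs were above 0 for 37 members (28.8% of all tested genes) and below 0 for 1 (25.5%). The difference between the pairs was not tested. Kif23, a kinesin of the central spindle, was at -0.77 in pair 1 and 0.78 in pair 2 on the log2 CPM scale. Anln, a cytokinesis protein, was at -0.33 and 0.92. Cdc25b, a phosphatase that activates Cdk1, was at -0.41 and 1.01.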

How the results depend on the processing

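Comparing neurons with proliferating cells, members called stayed at 0 in each direction under every alternative except the removal of a library, where they ranged from 0 to 6 higher. Leaving out libraries gave 1 to 54 genes called higher and 9 to 106 lower, and medians over the members of 0.039 to 1.38. Genes called lower numbered 2 with library size alone, 1 with log2(RPKM + 1), 2 with log2(RPKM + 0.1), 3 with the replicate block and 3 with the GC correction and the replicate block. The block changed no call among the members. No gene filter gave 41 higher and 122 lower, and DESeq2 12 and 48, with 1240 adjusted p-values missing.

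By set, genes called higher and lower were 1 and 5 with RLE size factors, 88 and 207 without the filter (14 members lower), 26 and 53 with DESeq2 (5 members, 4461 adjusted p-values missing), 13 and 3197 with log2(RPKM + 1) (39 members) and 12 and 3090 with log2(RPKM + 0.1) (39 members). RPKM is scaled to totals that include the 18S gene, and the median of all genes moved to -0.79 with log2(RPKM + 0.1), where that of the members was -1.65. With library size alone these were -1.03 and -1.98. Leaving out a library left medians of -1.36 to -0.59, with no test.

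Library size alone gave medians of -0.18 in pair 1, 0.94 in pair 2, -2.47 between the proliferating cultures and -1.45 between the neuron cultures. The GC correction gave 0.91 in pair 2, -1.24 and -0.52. The GC correction, with and without the block, and the removal of libraries from the set comparison were chosen after seeing the data.

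Of the 53 members, fitted log2 fold changes of neurons against proliferating cells changed sign for 21 with library size alone, 8 with log2(RPKM + 1), 7 with log2(RPKM + 0.1), 3 with the GC correction, and 30 when at least 1 of the libraries was left out (22 without proliferating replicate 2). Library size alone moved the median of all genes from 0.02 to -0.27. Among 10 members followed through each alternative, the sign changed with library size alone for Kif15 (-0.047), Plk1 (-0.044) and Ube2c (-0.31), and for Ube2c with log2(RPKM + 1) (-0.14) and log2(RPKM + 0.1) (-0.14). On leaving out each library, 6 of the 10 changed sign: Kif15 (-0.42 to 2.92), Aspm (-0.19 to 3.54), Mki67 (-0.19 to 2.90), Plk1 (-0.18 to 0.63), Ube2c (-0.17 to 0.32) and Mad2l1 (-0.82 to 0.61). The cause was not tested. Counts of 4 to 162 per member in proliferating replicate 2 limit the precision of its ratios.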
